A study of Sus scrofa with 18 samples.

Results

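The endometrium of Yorkshire gilts on gestational day (GD) 50 was compared with that of Yorkshire gilts on GD26. The comparison used 6 of the 18 arrays of the series, 3 of Yorkshire endometrium on GD26 and 3 on GD50, numbered 1 to 3 within each day. The features compared were the probe sets of the Affymetrix porcine GeneChip that are no controls and had an intensity above 100 (a log2 value above 6.64) on at least 3 of these 6 arrays, which left 7848 of 24123 probe sets. Of these, 4638 carry 1 gene symbol, for 3782 genes. The last probe set kept had its third-highest log2 value at 6.64406, and the first one left out had it at 6.64385.

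The series measured endometrium of Meishan pigs, a prolific Chinese breed, and of Yorkshire pigs, a less prolific one, on GD15, GD26 and GD50, with 3 arrays for each breed and day. All gilts were pregnant and had been mated to boars of their own breed, and the tissue came from conceptus attachment sites. Each array held a pool of RNA from corresponding sites of the same 2 gilts, and gilts of different days were different animals. The p-values therefore measure the spread between site pools of the same 2 gilts and not the spread between animals, and the day and the pair of gilts cannot be told apart. Each breed and day had its own pair, so a difference between breeds cannot be told apart from one between pairs of gilts either.

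In the pig the placenta does not invade the uterus: the epithelium of the chorion lies against the epithelium of the endometrium, and the conceptus lives on what the uterine epithelium and glands secrete and transport. GD26 falls at the end of implantation, when attachment is being completed and the conceptus has been releasing estrogens and interferons, and by GD50 the placenta is established and the folds between mother and fetus are well developed. Across this interval the endometrium goes from receiving the conceptus to feeding a growing fetus.

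The 6 arrays differed in level as well as in content. The 18 hybridization control probe sets, which report spiked material and no pig gene, had mean log2 values of 11.71, 13.05 and 13.13 on the GD26 arrays and of 12.74, 13.67 and 13.01 on the GD50 arrays, against 9.997 to 11.33 on the other 12 arrays of the series. GD26 array 1 and GD50 array 2 stood farthest from the others of their day. The number of probe sets above an intensity of 100 was 7131 to 8036 on the 6 arrays and 8373 to 8743 on the other 12. Arrays of the same day correlated at 0.940 to 0.971 and arrays of different days at 0.839 to 0.896 over the probe sets compared. Values are log2 intensities throughout, a change is GD50 minus GD26 in log2 units with its standard error (SE), and a gene is said to rise or fall only where limma gave an adjusted p under 0.05. Where all arrays of the dimmer day lay under an intensity of 100, a fold is given as a lower bound, with 100 in place of the dimmer day. Where only some of them did, the change is given as fitted, with the values under 100 included.

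Of the 7848 probe sets, 293 (3.73%) rose and 367 (4.68%) fell from GD26 to GD50, and the other 7188 were not called. With a fold change of at least 2 as a second condition, 243 (3.1%) rose and 312 (3.98%) fell. The median change was 1.45 among the risen probe sets and -1.51 among the fallen ones, against -0.061 over all of them. The 3 values of one day and the 3 of the other did not overlap in any of the 660 called probe sets, while over all probe sets 13.4% lay without overlap in the direction of a rise and 18.1% in that of a fall. In 76 risen probe sets all GD26 arrays lay under an intensity of 100, and in 105 fallen ones all GD50 arrays did. Such probe sets passed the filter only through the brighter day, so no call in the other direction was possible for them. Leaving out GD26 array 1 gave 334 rises and 267 falls, and leaving out that array with GD50 array 2 gave 275 and 203, so that the share of falls among the calls went from 55.6% to 44.4% and 42.5%. It was 44.8% after each array was centred on its median, so which direction held more probe sets depended on the scaling. Left out singly, the other 5 arrays gave 149 to 193 rises and 179 to 239 falls, and 124 of the risen and 148 of the fallen probe sets were called whichever array was left out.

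**Figure D1:**
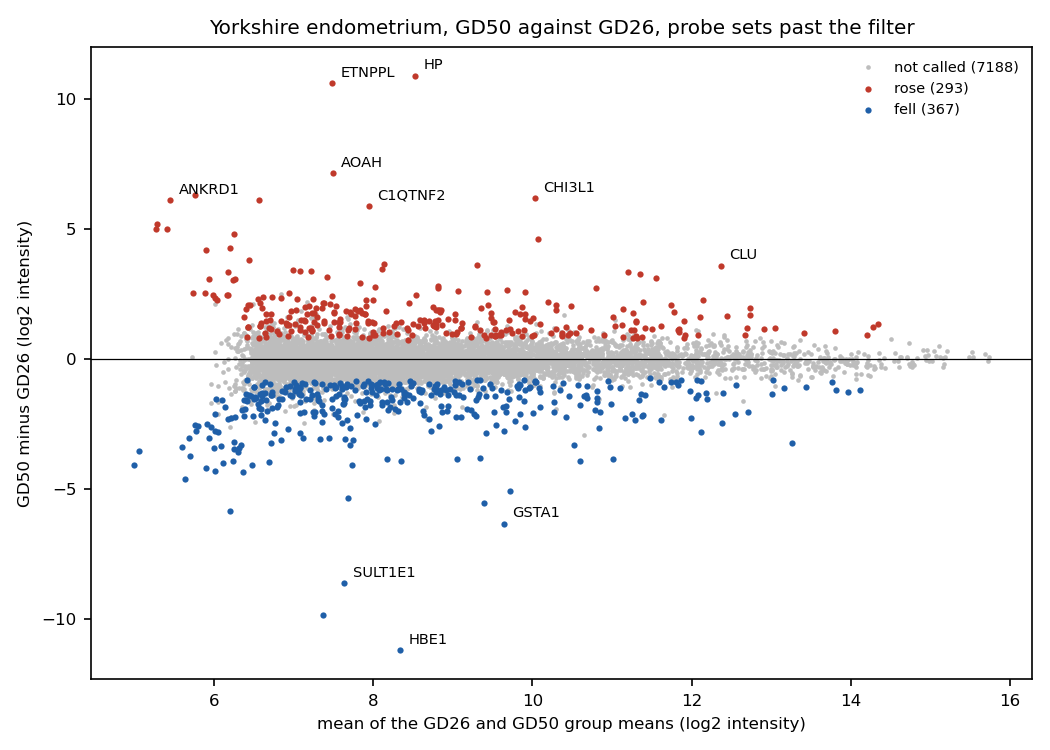
Change from GD26 to GD50 in Yorkshire endometrium (vertical axis, log2 intensity) against the mean of the 2 day means (horizontal axis, log2 intensity) for the 7848 probe sets compared. Red points rose (293), blue points fell (367) and grey points were not called. The named points span a fitted change from -11.20 for HBE1 to 10.91 for HP, both with one day under an intensity of 100.

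The largest rise among named genes was that of HP (haptoglobin), which binds free hemoglobin. Its log2 values were 3.06, 3.06 and 3.09 on the GD26 arrays and 13.75, 13.87 and 14.31 on the GD50 arrays, so that it went from far under an intensity of 100 to far above it, a rise of at least 161-fold (adjusted p = 2.59e-07). ETNPPL, which breaks down phosphoethanolamine, stood at 2.19, 2.18 and 2.18 on GD26 and at 13.12, 12.85 and 12.41 on GD50, at least 71.0-fold higher (adjusted p = 3.86e-07). Both genes lay under an intensity of 100 on every GD26 array and far above it on every GD50 array. CHI3L1, a secreted chitinase-like glycoprotein, read 6.37, 7.72 and 6.71 on GD26 and 13.57, 13.01 and 12.81 on GD50, a change of 6.20 ± 0.38 (SE; adjusted p = 0.000223). AOAH, the enzyme that removes acyl chains from bacterial lipopolysaccharide, read 3.95, 3.70 and 4.08 and then 11.45, 10.82 and 10.97, at least 21.6-fold higher (adjusted p = 4.60e-06). C1QTNF2, a secreted protein of the C1q family, read 6.01, 5.44 and 3.52 and then 11.16, 10.93 and 10.61, at least 19.1-fold higher (adjusted p = 0.00145). For these 5 genes the lowest GD50 array lay above an intensity of 100 and far above the highest GD26 array.

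Next in size came CLU (clusterin, a secreted chaperone), with 9.69, 10.92 and 11.08 on GD26 and 14.19, 14.03 and 14.27 on GD50, a change of 3.60 ± 0.37 (SE; adjusted p = 0.00163). SLC2A5, the fructose transporter, moved from 10.10, 9.25 and 9.24 to 13.18, 12.66 and 12.78, a change of 3.34 ± 0.29 (SE; adjusted p = 0.000953). RARRES1, a gene named for its response to retinoic acid, moved from 9.74, 9.66 and 9.73 to 13.31, 12.94 and 12.70, a change of 3.27 ± 0.21 (SE; adjusted p = 0.000289), and all 3 of its probe sets rose, by 3.14 to 4.80. Fructose is the main sugar of fetal blood and fluids in the pig, and the values of the days lay apart for all 3 genes. S100A9, a calcium-binding protein of neutrophils and monocytes, read 5.81, 6.84 and 6.47 on GD26 and 9.89, 10.15 and 9.49 on GD50, a change of 3.47 ± 0.31 (SE; adjusted p = 0.00104). The other genes among the 15 largest rises were PFN2, an actin-binding profilin (2.66), DEFB1, an antimicrobial beta-defensin (2.63), TMEM86A, an enzyme of plasmalogen breakdown (2.58), S100G, the vitamin D-dependent calcium-binding protein (2.58), FLVCR2, a membrane transporter (2.77), and BCAT1, the cytosolic branched-chain amino acid transaminase (2.92). Their adjusted p-values ran from 0.00112 to 0.0222. The call of 1 of them rested on single arrays, since it was lost for BCAT1 without any 1 of GD26 array 2 or GD50 arrays 1, 2 and 3 (adjusted p = 0.0655 to 0.0808).

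The largest fall was that of HBE1, the embryonic epsilon globin. It read 13.81, 14.06 and 13.94 on the GD26 arrays and 2.67, 2.67 and 2.87 on the GD50 arrays, at least 157-fold lower (adjusted p = 1.55e-07). SULT1E1, the sulfotransferase that inactivates estrogens, read 12.24, 11.87 and 11.73 and then 3.31, 3.79 and 2.90, at least 39.5-fold lower (adjusted p = 4.60e-06). Transcripts of both genes were far above an intensity of 100 on every GD26 array and under it on every GD50 array. GSTA1, a glutathione transferase, had 2 probe sets that fell. The one with the larger change went from 13.11, 12.47 and 12.82 to 6.32, 5.98 and 7.13, a change of -6.32 ± 0.33 (SE; adjusted p = 0.000101). The other went from 12.23, 12.003 and 12.51 to 6.77, 7.14 and 7.63, a change of -5.07 ± 0.27 (SE; adjusted p = 0.000110). Glutathione transferases of the alpha class are close relatives, and a probe set marked as shared between transcripts can report more than one of them.

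Among the next falls, CYP3A39, a cytochrome P450 that oxidizes steroids and xenobiotics, went from 13.53, 13.08 and 12.19 to 8.59, 8.44 and 10.21, a change of -3.85 ± 0.53 (SE; adjusted p = 0.00554). HMOX1 (heme oxygenase), which opens the heme ring, went from 10.67, 11.19 and 11.05 to 7.94, 6.42 and 7.02, a change of -3.85 ± 0.38 (SE; adjusted p = 0.00144). HPSE (heparanase), which cuts heparan sulfate of the matrix, went from 10.71, 9.76 and 10.49 to 7.05, 5.34 and 6.77, a change of -3.93 ± 0.47 (SE; adjusted p = 0.00297). In each of these 3 genes the lowest GD26 array stood above the highest GD50 array. PGLYRP1, a peptidoglycan-binding protein of innate immunity, ISYNA1, the first enzyme of inositol synthesis, and SERPINA3-2, a serine protease inhibitor, fell too, with changes of -3.79, -3.30 and -3.21. HSD3B1, HSP70.2 (an inducible heat shock protein), ACTG2 (a smooth muscle actin), ALDH1A1 (a retinaldehyde dehydrogenase), FGL2 (a fibrinogen-like protein of immune cells) and APOE (a lipid carrier) had changes of -2.86 to -2.59. Adjusted p-values of these 9 genes ran from 0.000289 to 0.00534 by limma. A second ACTG2 probe set changed by 0.048 and was not called, so the array gave no single answer for that gene.

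**Figure D2:**
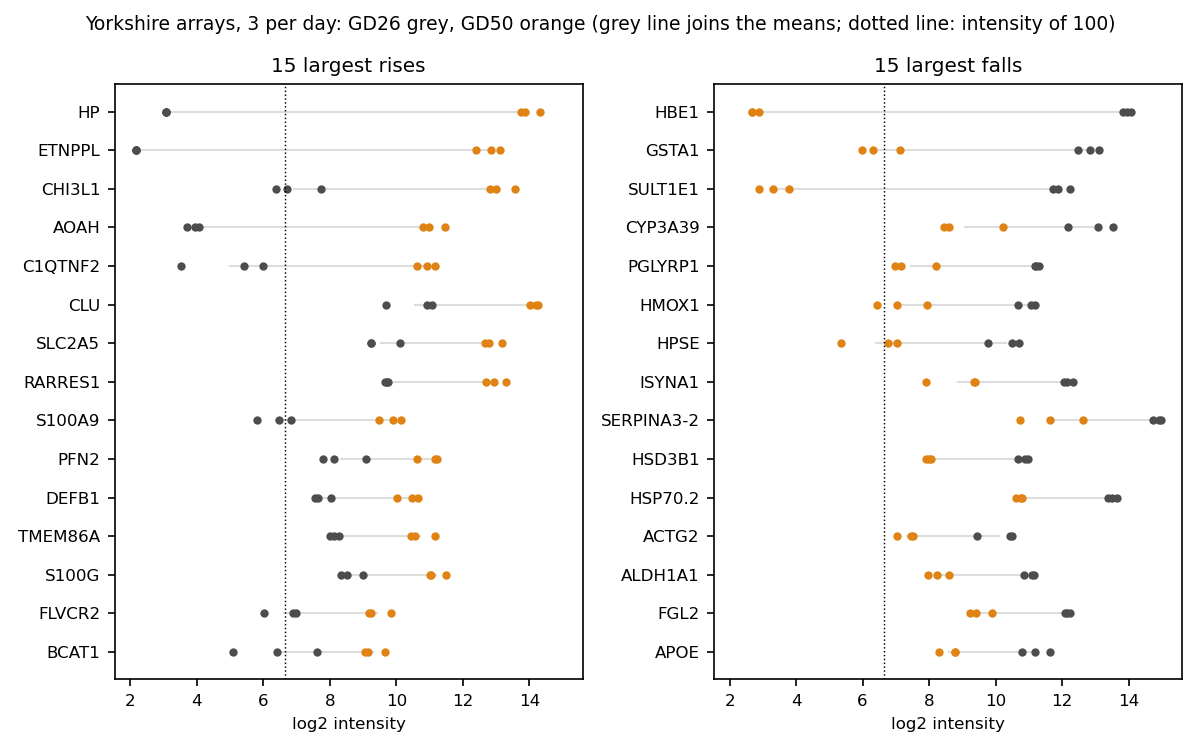
Log2 intensity (horizontal axis) on each of the 3 GD26 arrays (grey points) and the 3 GD50 arrays (orange points) for the 15 named genes with the largest rises (left) and the 15 with the largest falls (right), with a line between the day means and a dotted line at an intensity of 100. In all 30 genes the points of one day lie apart from those of the other. HP runs from 3.06 to 14.31 and HBE1 from 14.06 down to 2.67.

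Genes that mark the conceptus were read first among the groups, since tissue of an attachment site can hold trophoblast and fetal blood. Of the 16 measured genes on the list of trophoblast and placenta markers, none rose and 3 fell, against 4.02% and 4.55% of the 3782 genes. Their summed intensity was 110334 to 129188 on the GD26 arrays and 76799 to 107385 on the GD50 arrays. PLET1, a trophoblast surface protein, read 14.98, 14.83 and 14.89 on GD26 and 14.75, 14.47 and 14.86 on GD50, after a mean of 2.23 on GD15. PAG6, a pregnancy-associated glycoprotein of the chorion, read 14.58, 14.14 and 14.23 and 14.15, 13.61 and 14.45, after a mean of 2.62. Both were far above an intensity of 100 on all 6 arrays and under it on the GD15 average, so trophoblast transcripts were present in the pools of both days compared. Over the 16 genes the mean log2 value per array was 4.42 to 4.61 on GD15, 10.43 to 10.75 on GD26 and 9.84 to 10.36 on GD50. The genes that fell were DPPA5, a gene of pluripotent and germ cells, with a change of -1.27 ± 0.18 (SE; adjusted p = 0.00681), GATA3, a transcription factor of trophoblast, with -1.44 ± 0.33 (SE; adjusted p = 0.0403), and PLAC8, which was under 100 on every GD50 array and at least 1.73-fold lower (adjusted p = 0.00196). The call was lost for GATA3 without any 1 of GD26 arrays 1, 2 and 3 or GD50 array 1 (adjusted p = 0.0824 to 0.128), and also when the probe sets of the gene were averaged. In these pools, fewer cells of a type and less RNA per cell cannot be told apart.

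Besides HBE1, the erythroid list held 1 further fall, ALAS2, a called share of 66.7% against 8.57% of all genes. Both genes passed the filter only through their GD26 arrays, so only a fall could be called. With 3 measured genes chosen in this way, the share says nothing about red cell genes as a group. ALAS2, which starts heme synthesis in red cells, went from 6.84, 8.09 and 7.82 to 5.67, 5.06 and 5.49, at least 1.92-fold lower (adjusted p = 0.0102). The ALAS2 call was lost with values under 100 raised to 100. HBB, the adult beta globin, read 7.61, 6.44 and 6.80 and 6.17, 6.40 and 6.67 and was not called (-0.54, adjusted p = 0.355). HBM and AHSP were under the filter. The summed intensity of the 3 measured genes was 14697 to 17475 on GD26, most of it HBE1, and 124 to 154 on GD50. On GD15, HBE1 had a mean of 2.50, so it was under 100 before GD26 and again on GD50.

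Genes of steroid synthesis and conversion fell where they were called. Of 16 measured members none rose, 6 fell and 10 were not called, a called share of 37.5% against 8.57% of all genes. Their median change was -0.74 against -0.050 over all genes. Besides SULT1E1 and CYP3A39, the fallen members included HSD3B1, which converts pregnenolone to progesterone, with 10.98, 10.89 and 10.66 on GD26 and 8.001, 8.07 and 7.90 on GD50, a change of -2.86 ± 0.19 (SE; adjusted p = 0.000289). STAR, which carries cholesterol into mitochondria, went from 11.001, 9.90 and 10.06 to 7.997, 7.45 and 9.21, a change of -2.10 ± 0.48 (SE; adjusted p = 0.0386). All 3 values of each gene were lower on GD50 than any on GD26. HSD17B2, which oxidizes estradiol to estrone, went from 13.57, 13.83 and 13.80 to 12.06, 11.62 and 11.39, a change of -2.04 ± 0.23 (SE; adjusted p = 0.00224). HSD11B2, which inactivates cortisol, changed by -1.65 ± 0.35 (SE; adjusted p = 0.0290). CYP11A1, the side-chain cleavage enzyme that begins steroid synthesis, read 9.06, 9.37 and 8.52 and 7.84, 7.04 and 8.68 and was not called (-1.13, adjusted p = 0.156), and the groups overlapped. Under each of centring, quantile and loess scaling 1 of the 16 rose and 6 fell. Without GD26 array 1 and GD50 array 2 together 1 rose and 4 fell. SULT2A1, HSD17B4 and HSD11B1 were not called either, with changes of -0.74, 0.79 and -0.021. Without 1 array the calls of 2 members were lost, STAR without any 1 of GD26 arrays 1, 2 and 3 or GD50 arrays 1 and 2 (adjusted p = 0.0791 to 0.119) and HSD11B2 without any 1 of GD26 arrays 1 and 2 or GD50 arrays 1 and 2 (adjusted p = 0.0591 to 0.0962). The STAR call was also lost when the probe sets of the gene were averaged. Trophoblast makes steroids too, and the part of the trophoblast transcripts in these falls was not tested. On GD15 the means of STAR, HSD3B1, CYP11A1 and CYP3A39 were 2.40, 2.54, 2.18 and 2.38, all under an intensity of 100, as were those of PLET1 and PAG6.

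None of the 6 measured steroid receptors, progesterone-binding proteins and cofactors was called by limma, though 1 fell under each of centring, quantile and loess scaling and 2 fell with values under 100 raised to 100. All 6 changes were negative, from -1.13 to -0.30, with a median of -0.60 against -0.050 over all genes. The receptors themselves, PGR, ESR1 and PRLR among them, were under the filter, so their change is not given here. FKBP4, a co-chaperone of steroid receptors, changed by -1.13 (adjusted p = 0.0501) and PGRMC1, a membrane progesterone-binding protein, by -0.68.

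Of 16 measured interferon response genes 5 fell and none rose, a share called of 31.2% against 8.57% of all genes, with a median change of -0.94. OAS1, a sensor of double-stranded RNA, read 8.61, 8.62 and 8.69 on GD26 and 5.44, 4.82 and 6.53 on GD50, at least 3.99-fold lower (adjusted p = 0.00455). ISG15, a ubiquitin-like protein, went from 10.83, 11.21 and 10.88 to 8.92, 7.84 and 8.98, a change of -2.40 ± 0.33 (SE; adjusted p = 0.00554). RSAD2, the antiviral protein viperin, went from 9.05, 8.92 and 8.03 to 6.32, 5.61 and 7.42, a change of -2.22 ± 0.48 (SE; adjusted p = 0.0309). Every GD50 value of these 3 genes lay under every GD26 value. IFIT3 and MX1, both antiviral effectors, fell too, with changes of -1.35 ± 0.21 (SE; adjusted p = 0.0101) and -1.09 ± 0.21 (SE; adjusted p = 0.0216). The calls of 2 members were lost when single arrays were left out, RSAD2 without any 1 of GD26 arrays 1 and 2 or GD50 arrays 1 and 2 (adjusted p = 0.0819 to 0.109) and MX1 without any 1 of GD26 arrays 2 and 3 or GD50 arrays 1 and 2 (adjusted p = 0.0650 to 0.0873), and without GD26 array 1 and GD50 array 2 together 3 members fell. ISG12(A) was far above 100 on all arrays, at 13.70, 14.26 and 14.21 and 14.29, 14.35 and 14.18, and was not called. GBP1, TAP1 and IRF1, which answer to interferon gamma as well, were not called, with changes of 0.29, 0.019 and 0.007. With values under 100 raised to 100, the median change of the 16 genes was -0.54. Their mean log2 value per array was 9.63 to 9.76 on GD15, 8.73 to 9.03 on GD26 and 7.73 to 8.12 on GD50. The hybridization controls were dimmer on the Yorkshire GD15 arrays, at 10.43 to 11.11 against 11.71 to 13.67 on the other Yorkshire arrays. The part of this in the GD15 values was not tested.

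In Meishan endometrium all 5 of the fallen genes rose over the same days. Of the 16 genes, 7 rose and 1, PSMB8, fell there, and the change differed between the breeds in 7, OAS1, ISG15, RSAD2, IFIT3, MX1, IFIT1 and DDX58, in each of them with the lower change in Yorkshire. OAS1 in Meishan read 8.83, 9.51 and 9.74 on GD26 and 11.12, 11.29 and 11.30 on GD50, and the Yorkshire change minus the Meishan change was -4.93 ± 0.50 (SE; adjusted p = 0.000382), or -3.88 with values under 100 raised to 100. For ISG15 the difference was -4.03 ± 0.44 (SE; adjusted p = 0.000673), for RSAD2 -3.57 ± 0.57 (SE; adjusted p = 0.00752), for IFIT3 -2.19 ± 0.27 (SE; adjusted p = 0.00184) and for MX1 -1.88 ± 0.27 (SE; adjusted p = 0.00441). RSAD2 had means of 8.67 in Yorkshire and 8.38 in Meishan on GD26, and of 6.45 and 9.73 on GD50. The hybridization controls were brighter on the Yorkshire arrays of both days than on the Meishan ones, and the actin probe sets of the 3' end exceeded those of the 5' end by 2.38 to 2.91 on the Yorkshire arrays against 3.54 to 3.92 on Meishan GD26 and 4.63 to 5.23 on Meishan GD50. The part of either in the breed difference was not tested, and breed cannot be told apart from the pairs of gilts.

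**Figure D3:**
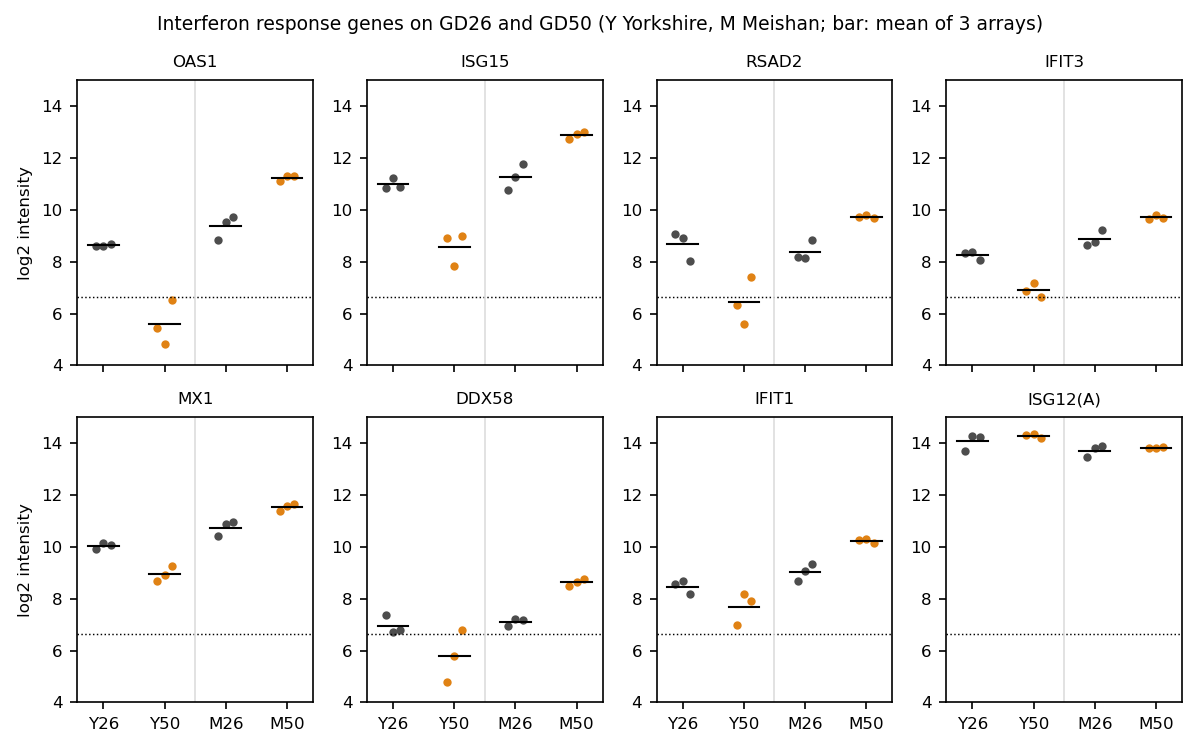
Log2 intensity (vertical axis) of 8 interferon response genes on each array of Yorkshire (Y) and Meishan (M) endometrium on GD26 (grey) and GD50 (orange), with bars at the mean of 3 arrays and a dotted line at an intensity of 100. OAS1, ISG15, RSAD2, IFIT3 and MX1 are lower on the Yorkshire GD50 arrays than on the Yorkshire GD26 arrays and higher on the Meishan GD50 arrays than on those of GD26. ISG12(A) lies between 13.44 and 14.35 in all 4 groups.

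Other immune lists gave other counts. No member of the antigen presentation list was called in 15 measured (median 0.019), and the class II genes SLA-DRA and SLA-DQA1 changed by 0.47 and 0.35. Of 12 interleukins, chemokines and receptors, 4 rose and none fell, a called share of 33.3% against 8.57% of all genes. IL6, an inflammatory cytokine that the uterus also makes in pregnancy, went from 8.90, 8.19 and 7.99 to 10.82, 10.26 and 9.94, a change of 1.98 ± 0.32 (SE; adjusted p = 0.0108). IL18, a cytokine that induces interferon gamma, went from 8.36, 7.61 and 7.30 to 9.55, 10.26 and 9.45, a change of 1.998 ± 0.34 (SE; adjusted p = 0.0128). The values of the days did not overlap in either gene. IL4R, the receptor of interleukin 4, and CXCL16, a membrane-bound chemokine, had changes of 1.04 ± 0.24 (SE; adjusted p = 0.0423) and 0.90 ± 0.21 (SE; adjusted p = 0.0375). Of these calls 3 were lost with single arrays left out, IL18 without GD26 array 2 (adjusted p = 0.0564), IL4R without any 1 of the 6 arrays (adjusted p = 0.0535 to 0.122) and CXCL16 without any 1 of the 6 arrays (adjusted p = 0.0558 to 0.129). Without GD26 array 1 and GD50 array 2 together 2 of the 12 rose. CXCR4 and CCL14 were not called, at 1.17 and 1.20.

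Among markers of macrophages and neutrophils, S100A9 rose and the other 4 measured genes were not called, with CD163 at 0.66, TYROBP at 0.65 and AIF1 at -0.61. The called share was 20% against 8.57% of all genes. CD14, MRC1, S100A8 and S100A12 were under the filter. S100A8 is the usual partner of S100A9, and its change is not given here. The summed intensity of the 5 genes was 2773 to 4019 on GD26 and 3701 to 4498 on GD50, and the ranges overlapped. Of the lymphocyte list only GNLY passed the filter and the other 15 genes on the array, CD3E and CD8A among them, did not.

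Matrix genes fell where they were called. Of 19 collagens, laminins and other matrix proteins, 6 fell, none rose and 13 were not called, a share called of 31.6% against 8.57% of all genes, with a median change of -0.97. COL5A1, a chain of type V collagen, went from 10.48, 10.44 and 10.72 to 7.99, 9.08 and 9.07, a change of -1.84 ± 0.32 (SE; adjusted p = 0.0138). COL6A3, a chain of type VI collagen, went from 9.75, 9.70 and 9.77 to 7.33, 8.46 and 8.09, a change of -1.78 ± 0.29 (SE; adjusted p = 0.0114). LAMC1, a laminin chain of basement membranes, went from 10.16, 10.01 and 9.82 to 8.79, 8.62 and 8.54, a change of -1.34 ± 0.19 (SE; adjusted p = 0.00613). None of the GD50 values of these 3 genes reached the GD26 values. COL1A2, of type I collagen, and COL4A2, of basement membrane collagen, had changes of -1.46 ± 0.34 (SE; adjusted p = 0.0385) and -0.79 ± 0.19 (SE; adjusted p = 0.0443). POSTN (periostin), which cross-links with collagen, went from 8.77, 7.13 and 7.90 to 3.79, 3.33 and 2.88 and lay under 100 on every GD50 array, at least 2.44-fold lower (adjusted p = 0.00120). The small proteoglycans DCN and LUM and the matrix protein SPARC changed by 0.086, -0.19 and -0.17 and were not called. Calls lost with single arrays left out were COL5A1 without GD26 array 3 (adjusted p = 0.0543), COL1A2 without any 1 of GD26 arrays 1, 2 and 3 or GD50 arrays 1 and 2 (adjusted p = 0.0634 to 0.118) and COL4A2 without any 1 of the 6 arrays (adjusted p = 0.0503 to 0.148). Without GD26 array 1 and GD50 array 2 together 4 of the 19 fell.

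Of 11 metalloproteinases, related proteases and inhibitors, TIMP3, an inhibitor bound to the matrix, and ADAM9, a membrane protease, rose, with changes of 1.00 ± 0.22 (SE; adjusted p = 0.0326) and 0.92 ± 0.23 (SE; adjusted p = 0.0491). The called share was 18.2% against 8.57% of all genes. Both calls failed when an array was left out, TIMP3 without any 1 of GD26 arrays 1, 2 and 3 or GD50 arrays 1 and 3 (adjusted p = 0.0607 to 0.119) and ADAM9 without any 1 of the 6 arrays (adjusted p = 0.0582 to 0.138), and none of the 11 was called by limma without GD26 array 1 and GD50 array 2. Another 2 ADAM9 probe sets were not called. MMP2 and TIMP1 changed by -0.58 and -0.18. Of 9 integrins and focal adhesion genes, the 2 chains of the vitronectin and osteopontin receptor rose and none fell, a called share of 22.2%. ITGB3, its beta chain, went from 3.998, 5.59 and 5.20 to 8.03, 6.71 and 7.42, at least 1.67-fold higher (adjusted p = 0.0216), and ITGAV, its alpha chain, rose by 1.01 ± 0.22 (SE; adjusted p = 0.0333). SPP1, the gene of osteopontin, read 15.36, 15.44 and 15.37 on GD26 and 15.64, 15.68 and 15.63 on GD50 and was not called. Both integrin calls were lost with single arrays left out, ITGB3 without any 1 of GD26 array 3 or GD50 arrays 1 and 3 (adjusted p = 0.0542 to 0.0716) and ITGAV without any 1 of GD26 arrays 1, 2 and 3 or GD50 arrays 1 and 2 (adjusted p = 0.0618 to 0.112). The ITGB3 call was also lost with values under 100 raised to 100.

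Of 8 measured cell division genes 5 fell and none rose, a share called of 62.5% against 8.57% of all genes, with a median of -0.98, and 17 further genes on the array were under the filter. TOP2A, the topoisomerase of dividing cells, went from 8.84, 9.18 and 8.98 to 7.14, 6.88 and 7.67, a change of -1.77 ± 0.25 (SE; adjusted p = 0.00613). CCNB1, the mitotic cyclin B, went from 9.13, 9.01 and 8.90 to 7.15, 7.68 and 7.54, a change of -1.56 ± 0.21 (SE; adjusted p = 0.00504). UBE2C, which tags mitotic proteins for destruction, went from 7.72, 8.20 and 7.85 to 6.46, 6.69 and 6.46, a change of -1.38 ± 0.21 (SE; adjusted p = 0.00769). These 3 calls held with each array left out. HMGB2, a chromatin protein, and RRM1, a subunit of ribonucleotide reductase, changed by -1.11 and -0.86 and lost their calls with single arrays left out, HMGB2 without any 1 of the 6 arrays (adjusted p = 0.0574 to 0.0968) and RRM1 without any 1 of GD26 arrays 1, 2 and 3 or GD50 arrays 1 and 3 (adjusted p = 0.0587 to 0.110). In Meishan endometrium 6 of the 8 genes fell too, and none differed between the breeds.

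Uterine secretions held 3 rises and no fall among 19 measured genes, a called share of 15.8% against 8.57% of all genes. Besides CLU and DEFB1, NPC2, a cholesterol-binding secreted protein, went from 10.43, 10.59 and 10.19 to 11.65, 11.50 and 11.85, a change of 1.26 ± 0.20 (SE; adjusted p = 0.0103). A second NPC2 probe set changed by 0.36 and was not called. ACP5 (uteroferrin), the iron-binding protein of pig uterine glands, read 14.69, 14.97 and 15.02 on GD26 and 15.19, 15.19 and 15.23 on GD50 and was not called (0.31, adjusted p = 0.351). UABP-2, SLPI and RBP4 read between 14.99 and 15.79 on all 6 arrays with changes of 0.049, 0.19 and -0.30. Close to the upper end of its scale an array can understate a change.

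Transport genes moved in both directions. Of 12 carriers of sugars and amino acids only SLC2A5 was called, a share of 8.33% against 8.57% of all genes. SLC2A1 and SLC2A3, which carry glucose, changed by -0.58 and 0.43. Of 8 genes for ions, water and calcium, 1 rose and 4 fell, a called share of 62.5%. S100G went from 8.33, 8.99 and 8.53 to 11.05, 11.50 and 11.03, a change of 2.58 ± 0.25 (SE; adjusted p = 0.00129). SLC39A2, a zinc importer, went from 11.02, 10.75 and 10.95 to 8.98, 8.72 and 8.66, a change of -2.12 ± 0.19 (SE; adjusted p = 0.00107). The days did not overlap in these 2 genes, and both calls held with each array left out. The water channels AQP1 and AQP3 had changes of -1.78 ± 0.40 (SE; adjusted p = 0.0351) and -1.54 ± 0.33 (SE; adjusted p = 0.0308), and the sodium pump subunit ATP1B1 one of -1.36 ± 0.25 (SE; adjusted p = 0.0174). These 3 calls were lost with single arrays left out, AQP1 without any 1 of GD26 arrays 1, 2 and 3 or GD50 array 3 (adjusted p = 0.0799 to 0.115), AQP3 without any 1 of GD26 arrays 1 and 3 or GD50 arrays 1 and 2 (adjusted p = 0.0584 to 0.102) and ATP1B1 without GD26 array 2 (adjusted p = 0.0665), and 1 of the 8 genes fell without GD26 array 1 and GD50 array 2 together. The AQP1 call was also lost when the probe sets of the gene were averaged. AQP8, a water channel, was not called (0.27).

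Iron and heme genes split around HP and HMOX1. TF (transferrin), the iron carrier of plasma, went from 7.62, 8.07 and 7.80 to 9.44, 9.19 and 8.89, a change of 1.34 ± 0.23 (SE; adjusted p = 0.0123). TFRC, its receptor, was not called (0.75, adjusted p = 0.232), and neither were the ferritin chains FTH1 and FTL, at -0.075 and 0.23. Of 10 measured genes 2 rose and 1 fell, a called share of 30% against 8.57% of all genes. Of 15 acute phase proteins and protease inhibitors, HP and CFB rose, and SERPINA3-2, SERPINE2 and ITIH3 fell, a called share of 33.3%. CFB, complement factor B, went from 9.73, 9.69 and 8.98 to 12.09, 11.19 and 11.22, a change of 2.03 ± 0.33 (SE; adjusted p = 0.0103). SERPINE2, a thrombin inhibitor of the tissue, went from 9.21, 8.59 and 8.79 to 6.67, 6.51 and 7.02, a change of -2.13 ± 0.24 (SE; adjusted p = 0.00226). The complement genes C3, C1S and C1R were not called, at 0.021, -0.18 and -0.025, so HP and CFB rose without them. ITIH3, a hyaluronan-binding protein of plasma, changed by -2.26, and the call was lost for ITIH3 without any 1 of GD26 arrays 1, 2 and 3 or GD50 array 3 (adjusted p = 0.0595 to 0.0791). Of the liver-type genes, ALB, AFP and 14 others were under the filter.

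Of 5 retinoid, 6 insulin-like growth factor and 8 prostaglandin genes, 2, 1 and 2 were called (40%, 16.7% and 25%), against 8.57% of all genes. ALDH1A1, which makes retinoic acid, fell in both of its probe sets, from 12.92, 13.22 and 13.22 to 10.50, 10.86 and 11.21 in one of them, a change of -2.26 ± 0.24 (SE; adjusted p = 0.00182). RARRES1 rose over the same interval, while RARRES2 and RBP4 were not called. Of 6 insulin-like growth factor genes, IGFBP2, a binding protein, went from 13.77, 13.61 and 13.59 to 15.12, 14.73 and 14.83, a change of 1.24 ± 0.19 (SE; adjusted p = 0.00987). IGF2, a growth factor made by the placenta, was not called (0.63, adjusted p = 0.254). Of 8 prostaglandin genes, PTGS2, the inducible cyclooxygenase, rose from 9.66, 8.49 and 8.97 to 10.56, 10.93 and 10.84, a change of 1.74 ± 0.31 (SE; adjusted p = 0.0155). AKR1CL1, an aldo-keto reductase, was under 100 on every GD26 array and at least 1.93-fold higher on GD50 (adjusted p = 0.0336). The prostaglandin calls were lost without single arrays, PTGS2 without any 1 of GD26 array 3 or GD50 arrays 2 and 3 (adjusted p = 0.0565 to 0.0606) and AKR1CL1 without any 1 of GD26 arrays 1, 2 and 3 or GD50 arrays 1 and 3 (adjusted p = 0.0535 to 0.110). The AKR1CL1 call was also lost with values under 100 raised to 100.

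The signalling lists had called shares of 9.09% (TGF-beta and BMP) and 8.33% (immediate early and stretch), close to the 8.57% of all genes. Of 11 TGF-beta and BMP genes ID3, an inhibitor of basic helix-loop-helix factors, rose, with a change of 0.92 ± 0.20 (SE; adjusted p = 0.0317), and the call was lost for ID3 without any 1 of GD26 arrays 2 and 3 or GD50 arrays 1, 2 and 3 (adjusted p = 0.0778 to 0.118). No angiogenic gene was called by limma in 8, with EDN1 (endothelin) at 1.84 and an adjusted p of 0.0721, but 2 rose with median centring and 1 rose with quantile scaling, with loess scaling and without GD26 array 1 and GD50 array 2. Of 12 immediate early and stretch genes, ANKRD1, a cardiac-type ankyrin repeat protein that responds to stretch, rose from 2.18, 2.18 and 2.80 to 8.91, 8.17 and 8.48, at least 3.67-fold (adjusted p = 4.29e-05). FOS, JUN and ATF3 changed by -0.59, -0.37 and 0.47 and EGR1 by -1.85, all uncalled. The ANKRD1 probe set was at the bottom of the scale on GD26 and above 100 on all 3 GD50 arrays.

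Metabolic genes fell where they were called, apart from FOLR2. Called shares were 13% (glutathione), 37.5% (serine, folate and one-carbon) and 7.69% (cholesterol), against 8.57% of all genes. Of 23 glutathione transferases, peroxidases and related genes, GSTA1, GPX3 and GSTM3 fell. GPX3, the secreted peroxidase, went from 9.99, 10.13 and 10.32 to 8.17, 8.06 and 8.42, a change of -1.93 ± 0.20 (SE; adjusted p = 0.00173), and GSTM3 had one of -1.37 ± 0.22 (SE; adjusted p = 0.0103). Of 8 serine, folate and one-carbon genes, CTH, which makes cysteine from cystathionine, went from 10.31, 10.11 and 10.05 to 7.55, 7.85 and 8.37, a change of -2.23 ± 0.25 (SE; adjusted p = 0.00224). PSPH, the last enzyme of serine synthesis, had a change of -1.47 ± 0.18 (SE; adjusted p = 0.00307), and FOLR2, a folate receptor, one of 1.09 ± 0.27 (SE; adjusted p = 0.0492). SCARB1, the receptor of high-density lipoprotein, was the only call among 13 cholesterol genes, a change of -1.14 ± 0.26 (SE; adjusted p = 0.0374). FOLR2 and SCARB1 lost their calls with arrays left out, FOLR2 without any 1 of the 6 arrays (adjusted p = 0.0543 to 0.139) and SCARB1 without any 1 of GD26 arrays 2 and 3 or GD50 arrays 1, 2 and 3 (adjusted p = 0.0621 to 0.121). No gene of glycolysis was called in 10 measured, with a median change of -0.40. In 6 of the 10 the GD50 values lay under the GD26 values without overlap, against 18.1% of all probe sets.

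The housekeeping lists showed how far the bulk of the array moved. Of 55 cytosolic ribosomal protein genes none was called, and they ran from -0.51 to 0.15 with a median of -0.13. Centring each array on its median took that to -0.023. Of 44 genes of the mitochondrial respiratory chain 1 was called, NDUFA10, a subunit of complex I, with a change of -0.83 ± 0.20 (SE; adjusted p = 0.0487), and the call was lost for NDUFA10 without any 1 of the 6 arrays (adjusted p = 0.0751 to 0.160). Their median was 0.064.

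Markers of tissue cell types were called at 14.3% (epithelium), 33.3% (stroma), 28.6% (smooth muscle) and 25% (endothelium) against 8.57% of all genes. Trophoblast transcripts were present in the pools of both days, and the part of conceptus tissue in these markers was not tested. Of 14 epithelial markers KRT19, a keratin, and DSP, a desmosome protein, fell, with changes of -1.21 ± 0.22 (SE; adjusted p = 0.0174) and -1.25 ± 0.30 (SE; adjusted p = 0.0425). The other 12 were not called, EPCAM at 0.23, KRT8 at 0.14, CDH1 at -0.39 and FOXA2, a factor of uterine glands, at -0.57. Of 6 stromal markers THY1 rose (0.92 ± 0.18, SE, adjusted p = 0.0240) and COL1A2 fell, while VIM was not called (-0.19). Summed intensity was 33419 to 34452 on GD26 and 28998 to 36951 on GD50 for the epithelial list. For the stromal list it was 43160 to 44261 and 53960 to 54369, where the ranges did not overlap and THY1 was the only gene called higher. The mean log2 value per array of the stromal list went the other way, at 12.028 to 12.158 on GD26 and 11.899 to 12.026 on GD50. Its median change was -0.13, so the higher sum does not stand for the list as a whole. Of 7 smooth muscle markers ACTG2 and SMTN fell, SMTN with a change of -1.13 ± 0.21 (SE; adjusted p = 0.0177), and ACTA2, TAGLN and CNN1 were not called, at -0.19, -0.15 and -0.038. Of 8 endothelial markers CLDN5, a tight junction protein of vessels, was at least 2.24-fold higher on GD50 (adjusted p = 0.00196), and VWF, a clotting protein of endothelium, had a change of -1.04 ± 0.24 (SE; adjusted p = 0.0371). PECAM1 and CDH5 were not called, at -0.39 and -0.60. Calls lost with single arrays left out were KRT19 without any 1 of GD26 array 2 or GD50 arrays 1, 2 and 3 (adjusted p = 0.0508 to 0.0614), DSP without any 1 of the 6 arrays (adjusted p = 0.0527 to 0.118), THY1 without any 1 of GD26 arrays 2 and 3 or GD50 arrays 1 and 3 (adjusted p = 0.0716 to 0.0838), COL1A2 without any 1 of GD26 arrays 1, 2 and 3 or GD50 arrays 1 and 2 (adjusted p = 0.0634 to 0.118), SMTN without any 1 of GD26 arrays 2 and 3 or GD50 arrays 1, 2 and 3 (adjusted p = 0.0544 to 0.0761) and VWF without any 1 of GD26 arrays 2 and 3 or GD50 arrays 1, 2 and 3 (adjusted p = 0.0603 to 0.133).

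**Figure D4:**
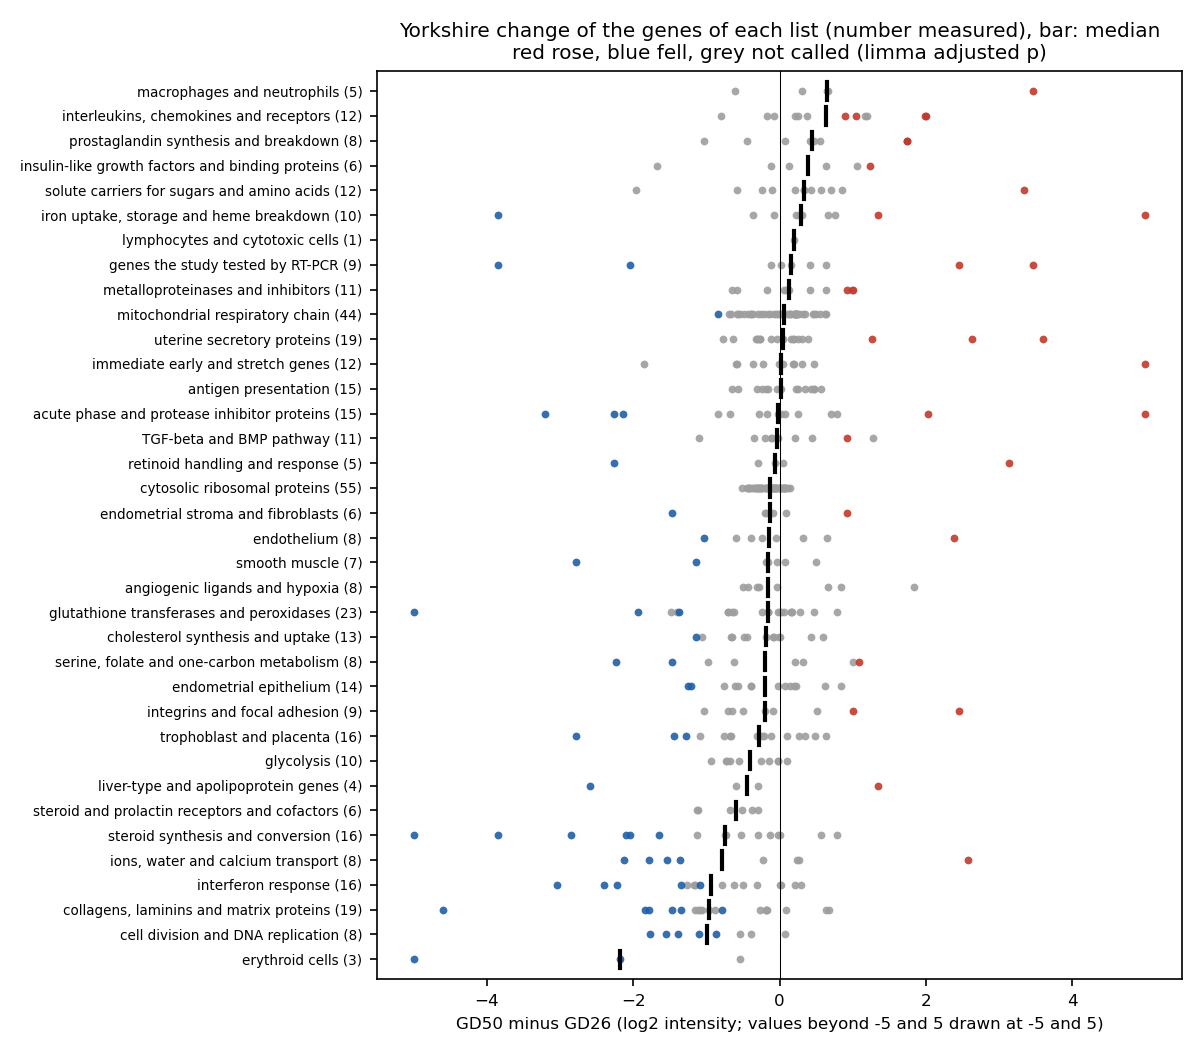
Change from GD26 to GD50 in Yorkshire endometrium (horizontal axis, log2 intensity) of each measured gene of 36 gene lists (vertical axis, with the number measured), ordered by the median, which a black bar marks; changes beyond -5 and 5 are drawn at those values. Red genes rose, blue genes fell and grey genes were not called. Erythroid, cell division, matrix, interferon and ion and water transport genes have the lowest medians and macrophage and interleukin genes the highest.

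The study had chosen most genes for RT-PCR from its calls on these arrays, so their array values are no independent evidence. It chose STC1, ITGB3 and IGFBP3 for their roles in endometrial remodeling. These had not reached significance in its own array analysis. Of the 9 read here that passed the filter, S100A9 and ITGB3 rose and HSD17B2 and HMOX1 fell. THBS1, a matrix glycoprotein, read 11.94, 10.96 and 10.83 on GD26 and 12.09, 11.87 and 11.69 on GD50 and was not called (0.64, adjusted p = 0.270). It passed when GD26 array 1 was left out, with an adjusted p of 0.0425. MMP7, LIF, MSX1 and STC1 changed by 0.42, 0.15, 0.022 and -0.11 and were not called. PRLR and BMP4 were under the filter.

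The Meishan change over the same days was set beside the Yorkshire change for the same 7848 probe sets, with no array in common. In Meishan 485 (6.18%) rose and 610 (7.77%) fell in the fit of 12 arrays of both breeds. Yorkshire had 713 and 888 in that fit, so the 293 and 367 of its own 6 arrays cannot be set against the Meishan counts. Of the 293 probe sets that rose in Yorkshire, 158 rose in Meishan as well, 53.9% of the Yorkshire and 32.6% of the Meishan list, and 5 fell. Of the 367 that fell in Yorkshire, 173 fell in Meishan as well, 47.1% and 28.4% of the lists, and 8 rose. These shares set lists from a fit of 6 arrays beside lists from a fit of 12, so they do not measure how much the breeds share. The changes of the breeds correlated at r = 0.59 and rho = 0.41 across the 7848 probe sets, which share arrays and annotation and are no independent replicates. Genes with large changes in both breeds included SLC2A5 (3.34 in Yorkshire and 4.09 in Meishan) and HPSE (-3.93 and -4.01), whose breed differences did not pass (adjusted p = 0.360 and 0.961 by limma). ETNPPL and AOAH, at least 71.0-fold and 21.6-fold higher on GD50 in Yorkshire, had Meishan means of 2.19 and 3.64 on GD26 and of 13.05 and 10.30 on GD50. SULT1E1, at least 39.5-fold lower in Yorkshire, had Meishan means of 11.58 and 2.71. These 3 genes thus went from under 100 to far above it, or back, in both breeds.

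The change differed between the breeds in 224 probe sets. With a single pair of gilts for each breed and day, these differences cannot be told apart from differences between pairs of gilts. It was higher in Yorkshire in 118 (1.5%) and lower in 106 (1.35%). Among the probe sets that rose in Yorkshire, 62 had the higher change there and 2 the lower one, and among those that fell, 59 had the lower and 3 the higher one. Without GD26 array 1 of Yorkshire the counts were 255 and 130, so 1 array moved the first count by more than 1.5 times. Without Yorkshire GD26 array 3 the change was higher in 78 probe sets, and without Yorkshire GD50 array 2 it was lower in 70. Meishan GD26 arrays 2 and 3 and GD50 arrays 1, 2 and 3, left out singly, gave 49 to 78 higher and 48 to 67 lower.

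Breed differences between values under 100 are given as fitted and again with such values raised to 100. Higher changes in Yorkshire included CLDN5, with 5.77, 5.19 and 5.29 on GD26 and 7.58, 7.63 and 8.20 on GD50 in Yorkshire against 6.72, 7.06 and 6.78 and 5.90, 5.71 and 5.52 in Meishan, a difference of 3.53 ± 0.30 (SE; adjusted p = 0.000129) as fitted and 1.37 with the floor. C1QTNF5, a relative of C1QTNF2, rose by 2.27 in Yorkshire against a change of -0.035 in Meishan, a difference of 2.31 ± 0.36 (SE; adjusted p = 0.00657). CHPT1, which makes phosphatidylcholine, rose by 1.25 and changed by -0.91 in Meishan, a difference of 2.16 ± 0.19 (SE; adjusted p = 0.000131). CLDN5 and CHPT1 rose in Yorkshire and fell in Meishan, CLDN5 between values under 100 at the lower end of each breed. IL18, CLU, C1QTNF2, RARRES1 and S100G had differences of 2.14, 2.13, 2.92, 1.60 and 1.38, and that of C1QTNF2 was 2.63 with the floor. In the brightest probe set of RARRES1 the breed difference was not called, so its probe sets do not give the same answer on breed.

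The named genes with lower changes in Yorkshire are given in 2 sets. In the first the gene fell in Yorkshire and did not fall in Meishan. FGL2 read 12.14, 12.23 and 12.08 and then 9.42, 9.24 and 9.89 in Yorkshire against 9.98, 9.83 and 9.68 and 10.16, 9.83 and 10.01 in Meishan, a difference of -2.80 ± 0.25 (SE; adjusted p = 0.000155). HSD3B1 changed by -2.86 against -0.11 in Meishan, a difference of -2.75 ± 0.54 (SE; adjusted p = 0.0218). PLAC8 fell in Yorkshire and rose in Meishan (1.22, adjusted p = 0.00887), a difference of -4.002 ± 0.37 (SE; adjusted p = 0.000165) as fitted and -2.01 with the floor. The GSTA1 probe set with the larger fall changed by 0.095 in Meishan, a difference of -6.42 ± 0.47 (SE; adjusted p = 6.77e-05) as fitted and -5.996 with the floor, with all 6 Meishan arrays under 100 on it, but the other fell in both breeds, with a change of -3.90 in Meishan, and the difference was not called (adjusted p = 0.144), so the 2 probe sets do not give the same answer on breed.

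In the second the gene was not called in Yorkshire and rose in Meishan. PLAC1, a placental protein, read 9.76, 8.18 and 9.59 and 9.25, 8.52 and 9.47 in Yorkshire against 6.55, 6.44 and 3.27 and 10.45, 10.65 and 10.24 in Meishan, a difference of -5.12 ± 1.03 (SE; adjusted p = 0.0242) as fitted and -3.90 with the floor. TM4SF5, a membrane protein of the tetraspanin-like family, read 9.55, 8.34 and 9.38 and 8.67, 7.86 and 8.41 against 6.74, 5.54 and 3.55 and 10.32, 10.66 and 9.82, a difference of -5.77 ± 0.90 (SE; adjusted p = 0.00657) as fitted and -4.37 with the floor. BPI, which binds bacterial lipopolysaccharide, read 13.10, 12.21 and 12.68 and 12.81, 12.35 and 13.10 against 10.20, 9.05 and 5.66 and 13.82, 13.76 and 13.59, a difference of -5.33 ± 1.18 (SE; adjusted p = 0.0344) as fitted and -5.01 with the floor. In each of these 3 genes the Yorkshire arrays of both days overlapped, while the Meishan GD26 arrays were lower and array 3 was the lowest of them. That array also had the lowest mean over the trophoblast list, 8.89 against 9.58 and 9.77. IGF2 and PPAG3, both of the trophoblast list, also had lower changes in Yorkshire, with differences of -3.29 ± 0.47 (SE; adjusted p = 0.00444) and -1.51 ± 0.32 (SE; adjusted p = 0.0268). Over the trophoblast list the mean log2 value per array in Meishan was 8.89 to 9.77 on GD26 and 9.98 to 10.48 on GD50, where 5 of the 16 genes rose, against 10.43 to 10.75 and 9.84 to 10.36 in Yorkshire. The part of that gap on GD26 in the breed differences was not tested.

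**Figure D5:**
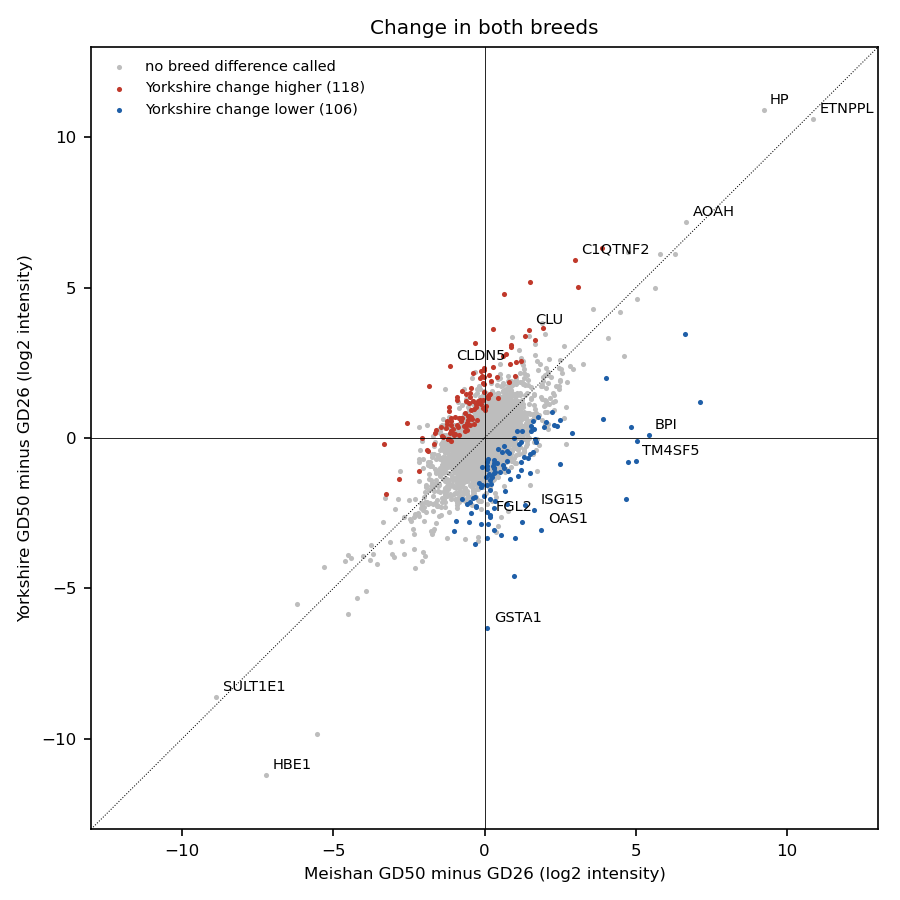
Change from GD26 to GD50 in Yorkshire (vertical axis, log2 intensity) against the change in Meishan (horizontal axis, log2 intensity) for the 7848 probe sets, with a dotted line of equal change. Red points have a higher change in Yorkshire (118) and blue points a lower one (106) by the limma test of the difference. As fitted, with values under 100 included, ETNPPL, AOAH and SULT1E1 lie near the line, and GSTA1, OAS1 and ISG15 lie below it.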

How the data were processed

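RNA of endometrium from Meishan and Yorkshire gilts was measured on 18 Affymetrix porcine GeneChips, 3 for each breed on GD15, GD26 and GD50. The deposited values are log2 intensities per probe set: the authors preprocessed the scanner files with the affy and GCRMA packages, and the submitters' processing notes also name RMA. Versions are not given in the sources used here. GCRMA estimates background from probe sequence, which sets low values near a common minimum, so differences under an intensity of 100 are poorly measured. Folds are given as bounds where all arrays of the dimmer day lay under 100. Where only some did, the fitted change is printed and its size rests in part on such values.

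Groups came from the sample labels. Probe sets past the filter (above 100 on at least 3 of the 6 Yorkshire GD26 and GD50 arrays, 7848 of 23999 that are no controls) were fitted with limma 3.58.1 in R 4.3.3 on those 6 arrays, with no covariate, and p-values were adjusted by the Benjamini-Hochberg method. The filter was applied before the fit, as in the study's methods. The Meishan change and the breed difference (Yorkshire change minus Meishan change) were fitted on the 12 arrays of both breeds and days. The fit was tested on simulated data. Genes in lists were read from the brightest of their probe sets, and genes were named by symbols of the platform annotation. Named were the 15 largest rises and falls with 1 symbol, a fold of at least 2 and groups without overlap, ranked with values under 100 raised to 100, up to 4 called members of each list, the genes chosen for RT-PCR and 5 breed differences in each direction. List members outside these limits were named after their values were seen. The members and the lists were chosen with earlier results of these data known. The number of arrays limits the precision. Plots used matplotlib 3.10.9 under Python 3.11.15.

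Alternatives were Bonferroni adjustment, more arrays in the fit, other filters, floors and scalings, a mean-variance trend, a robust fit, the replicate number as a block, the mean over the probe sets of a gene and each array left out. The fit without GD26 array 1 and GD50 array 2 and the hybridization controls as a covariate were among those chosen after seeing the data.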

Additional observations from a re-analysis of the deposited data

Results flagged for a closer look

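The values here are the Yorkshire change minus the Meishan change from GD26 to GD50, in log2 units, for the named genes in which limma found a difference between the breeds. Higher changes in Yorkshire were found for the vessel junction gene CLDN5 (3.53, or 1.37 with values under 100 raised to 100), the secreted proteins C1QTNF2 (2.92, or 2.63 with values under 100 raised to 100), C1QTNF5 (2.31, or 2.23) and CLU (2.13), the lipid enzyme CHPT1 (2.16), the cytokine IL18 (2.14), RARRES1 (1.60), the glutathione transferase GSTM3 (1.46, or 1.35) and the calcium-binding protein S100G (1.38).

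Lower changes in Yorkshire were found for the interferon response genes OAS1 (-4.93, or -3.88 with that floor), ISG15 (-4.03), RSAD2 (-3.57, or -3.11) and IFIT3 (-2.19). Among genes of the trophoblast and red cell lists they were found for PLAC1 (-5.12), PLAC8 (-4.002) and ALAS2 (-2.91), each with values under 100, and with the floor they were -3.90, -2.01 and -1.01. The remaining ones were GSTA1 (-6.42, or -5.996 with the floor), TM4SF5 (-5.77, or -4.37), BPI (-5.33, or -5.01), FGL2 (-2.80), HSD3B1 (-2.75), HSP70.2 (-2.28), the zinc importer SLC39A2 (-1.64), the water channel AQP3 (-1.75) and both probe sets of ALDH1A1 (-1.83 and -1.98).

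Of these genes GSTM3 had the higher change in Yorkshire although it fell there, since its fall in Meishan was larger (-2.83 against -1.37). In the brightest probe sets of RARRES1 and GSTA1 the breed difference was not called. The hybridization controls were brighter on the Yorkshire arrays, and the actin 3' minus 5' difference was 2.38 to 2.91 there against 3.54 to 5.23 on the Meishan arrays of these days. The part of either in these differences was not tested, and breed cannot be told apart from the pairs of gilts.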

How the results depend on the processing

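Counts are given as probe sets that rose and that fell, 293 and 367 in the report. They were 21 and 25 by Bonferroni adjustment, 570 and 741 with all 9 Yorkshire arrays in the fit, 713 and 888 with 12 arrays of both breeds, 133 and 153 with no filter and 173 and 202 by the mean of a gene's probe sets. Median centring gave 457 rises. Without GD26 array 1 and GD50 array 2 there were 275 rises and 203 falls. With one array left out at a time, rises ranged from 149 to 334 and falls from 179 to 267. With a fold of at least 2 (243 and 312) the counts were 21 and 25 by Bonferroni, 156 and 170 with the filter after the fit, 103 and 114 with no filter and 132 and 149 by gene means. Falls were 191 without the pair of arrays, and one array left out gave 149 to 296 rises and 179 to 240 falls. The breed difference (118 higher, 106 lower) counted 9 and 13 by Bonferroni, 188 higher with median centring, and 49 to 255 higher and 48 to 130 lower with one array left out. The share of falls among calls was 55.6% as reported and 44.9% with the hybridization controls as a covariate. The cause was not tested for any of these settings beyond their construction. Under centring, quantile and loess scaling the interferon list kept no rise and had 6 falls each, and the matrix list had 5 to 7 falls. Without the pair of arrays the lists of integrins and of iron genes had 1 rise each, the epithelial list had 1 fall, and the mitochondrial list had 1 rise in place of its fall. The rise in the liver-type list, the rise in the one-carbon list and all calls in the stromal and cholesterol lists were lost by limma.

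Uncalled genes changed sign. LIF ranged from -0.13 to 0.35 with one array left out, MSX1 from -0.10 to 0.23, STC1 from -0.50 to 0.23, BPI from -0.14 to 0.31 and PLAC1 from -0.60 to 0.19. MSX1 was also at -0.017 without the pair of arrays and at -0.024 with the covariate. PLAC1 was at 0.0033 with centring, 0.13 by the gene mean, 0.47 without the pair of arrays and 0.24 with the covariate. Of the values of named genes under all settings, 1892 kept their direction and side of the threshold, 335 in 69 genes lost the call, 1 gained it and 19 in 5 genes changed sign, and no called gene did.

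Replicate numbers were not found to pair the samples, since deviations of same-numbered arrays correlated at 0.14, 0.20 and -0.026. With the number as a replicate block, 296 rose and 376 fell, 270 and 353 of them at least 2-fold, and the breed difference counted 139 higher and 132 lower. A change with all arrays of a day under an intensity of 100 is known only as a bound. With only some arrays under 100, the size of the printed change is uncertain.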

Other observations

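Heat shock proteins and their co-chaperones, which fold proteins and are induced by heat and other stress, were grouped by symbol after their values had been seen. Of 34 measured genes 7 fell, none rose and 27 were not called, with a median change of -0.47 against -0.050 over all genes, of which 4.55% fell and 4.02% rose, and without GD26 array 1 and GD50 array 2 there were 4 falls. HSPA6, an inducible HSP70, read 8.67, 7.17 and 7.42 on the GD26 arrays and 4.20, 3.99 and 5.08 on the GD50 arrays, all of these under 100, at least 2.16-fold lower (adjusted p = 0.00511). HSPH1, an HSP110, went from 12.02, 11.24 and 11.30 to 9.003, 9.44 and 9.50, a change of -2.21 ± 0.27 (SE; adjusted p = 0.00341). The values of the days did not overlap in either gene. DNAJB1, a partner of HSP70, went from 11.54, 11.61 and 11.51 to 10.26, 9.64 and 10.29, a change of -1.49 ± 0.23 (SE; adjusted p = 0.00918). The other falls were those of HSP70.2 (-2.09), BAG3 (-1.40), DNAJA1 (-0.86) and HSP90AB1 (-0.79), and with single arrays left out the calls of the last 3 were lost, BAG3 without any 1 of GD26 arrays 1, 2 and 3 or GD50 arrays 1 and 2 (adjusted p = 0.0515 to 0.0695), DNAJA1 without any 1 of the 6 arrays (adjusted p = 0.0606 to 0.107) and HSP90AB1 without any 1 of the 6 arrays (adjusted p = 0.0564 to 0.127). In Meishan endometrium 2 of the 34 genes fell and none rose, with a median of -0.077, and 5 had a lower change in Yorkshire. HSPA6 lay under an intensity of 100 on all 6 Meishan arrays of these days.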
